A study of Homo sapiens with 14 samples.

Results

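Structural RNA repeats are the parts of the repeat annotation that do not come from transposable elements: genes and pseudogenes of ribosomal RNA, of 7SL, of the small nuclear RNAs, of the small cytoplasmic RNAs, of 7SK and of transfer RNA. They were taken as every repeat copy whose counted transcript strand was the strand of the repeat and whose repeat class was rRNA, srpRNA, snRNA, tRNA, scRNA or RNA, the last being the class that holds 7SK. This rule uses names and strand, not levels. It gave 1074 copies in 42 subfamilies, of 579614 repeat copies of any class counted on their own strand. The snRNA class held 368 of the copies, srpRNA 234, scRNA 191, rRNA 167, RNA 77 and tRNA 37. Between 201 and 358 copies were detected in a library, 57 were detected in all 14 libraries and 444 in 1 library.

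The libraries are pA-selected, stranded RNA-seq of A375 cells, an established human melanoma line, in an allelic series of ZC3H18 (Z18), a zinc-finger protein that links capped nuclear RNA to the surveillance machinery. Bulk Z18 CRISPR cells (n = 3) were a transiently transfected, puromycin-selected pool that received Cas9 with a guide against Z18, and bulk control cells (n = 3) received the empty Cas9 vector without a guide, so both pools carried Cas9 and no line was cloned from them. Z18 trunc/+ (n = 3, heterozygous for a truncating mutation from a CRISPR homology-directed repair experiment, of which 1 clone carried the templated change and the others different truncating alleles), Z18 -/+ (n = 3, heterozygous loss of function) and Z18 WT (n = 2) were transfected, selected and then grown as single-cell clones by limiting dilution, and each library is 1 clone. The study set trunc/+ beside -/+ to ask whether a truncated protein acts differently from the loss of 1 allele, and the bulk pools served where null clones were not obtained. The 2 clone comparisons with WT share the same WT clones, and all 3 clone comparisons share clones, so they are not independent of each other.

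These RNAs are the working parts of core machines. The 28S and 18S rRNAs are cut from 1 RNA polymerase I transcript and form the ribosome, together with 5S rRNA made by RNA polymerase III. 7SL is the RNA of the signal recognition particle, 7SK holds the elongation factor P-TEFb inactive, U1, U2, U4, U5 and U6 form the spliceosome, Y RNAs bind the Ro protein, BC200 is a primate RNA that represses translation, and U3, U8, U13, U14 and U17, which the repeat annotation files under snRNA, are nucleolar RNAs that guide the cutting or modification of rRNA. Most of these RNAs end without a poly(A) tail, so a pA-selected library holds only the fraction that was tailed, was primed or captured at internal A runs, was carried along, or lay inside an mRNA. How much of the signal came by each route was not tested. A bulk level also cannot tell fewer cells with an RNA from less of it in each cell.

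The most counted copies of these RNAs are close to identical in sequence, which limits where a fragment can be placed. For 7SL, the RN7SL2 copy (minus strand, inside an exon of an unnamed non-coding transcript), the RN7SL1 copy (plus strand) and the RN7SL3 copy (minus strand) all lie on chromosome 14, the last 2 in no other gene. Over 300 bases RN7SL1 differs from RN7SL2 at 4 positions and RN7SL3 differs from RN7SL2 at 11, so a fragment can be placed only if it covers such a position.

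BC200 is annotated as BCYRN1 on chromosome 2 (plus strand), and a near-identical copy without a gene name lies on chromosome X (plus strand). Both copies hold A runs of 5, 11 and 10 bases, which an oligo(dT) selection can bind, and over 197 compared bases they differ at 2 positions. An A run of at least 10 bases was present in 47 of the 1074 copies, and in 3 of the 47 copies with a mean level of at least 1 CPM (counts in each 1000000 aligned fragments).

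For U3 the sequences are shown because 1 base alone separates the 2 most counted copies, marked by the capital (A78C, SNORD3A first, counted from 1 at the 5′ end). The genome is hg38 and each sequence is read 5′ to 3′ on the strand of the repeat. SNORD3A lies at chr17:19188016-19188232 and SNORD3B-1 at chr17:19061912-19062128, both on the plus strand and in no other gene.
SNORD3A: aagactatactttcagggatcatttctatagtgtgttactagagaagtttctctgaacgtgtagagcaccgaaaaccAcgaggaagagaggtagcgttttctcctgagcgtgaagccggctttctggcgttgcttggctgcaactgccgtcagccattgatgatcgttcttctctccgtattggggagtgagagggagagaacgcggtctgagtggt
SNORD3B-1: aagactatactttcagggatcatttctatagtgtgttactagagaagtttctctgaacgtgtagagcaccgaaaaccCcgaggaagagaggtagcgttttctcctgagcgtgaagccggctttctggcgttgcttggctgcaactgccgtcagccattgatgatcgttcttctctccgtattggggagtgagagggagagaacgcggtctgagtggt

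Levels are estimated counts in each 1000000 aligned fragments of the library (CPM), in which a fragment with several matching copies was divided among them by expectation maximization. Libraries held 15615675 to 33018360 aligned fragments, with 28098217 to 32035781 in bulk CRISPR against 15615675 to 26668594 in bulk control. A count of 0 allows a level of up to 0.0909 to 0.192 CPM depending on the library (3 counts, counting error only). In the gene files, Z18 was at 10.4, 11.9 and 12.8 FPKM (fragments per kilobase of transcript, scaled to library size) in bulk CRISPR and 38.1, 13.9 and 48.7 FPKM in bulk control, and at 8.70 to 14.3 FPKM in trunc/+, 16.1 to 17.1 FPKM in -/+ and 22.0 and 23.5 FPKM in WT. Bulk control 2 thus stood close to the edited pools, and the bulk control libraries spread far more than the bulk CRISPR libraries in most of what follows. Of 10 melanocyte lineage markers, SOX10, CSPG4, MITF, S100A1, S100B and PMEL were above 0 in every library, while MLANA and TYR were at 0 in all 14. S100A1 ranged over 1.51 to 167 FPKM and S100B over 0.295 to 85.4 FPKM. PMEL stayed at or below 0.559 FPKM, and DCT and TYRP1 at or below 0.164 FPKM. Haematopoietic markers (7 genes, most of it CD68) summed to 16.2 to 74 FPKM.

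Ribosomal RNA was by far the most counted class. Together the structural RNAs made up 15.2% to 48.0% of all repeat counts on the repeat's strand, the highest share in bulk control 3, and rRNA made up 87.3% to 97.6% of the structural counts. The rRNA class was at 7969, 11426 and 12701 CPM in bulk CRISPR and at 5977, 9983 and 30689 CPM in bulk control. It was at 9210, 7434 and 8814 CPM in trunc/+, 6234, 6590 and 8881 CPM in -/+, and 6690 and 8312 CPM in WT. The clones lay between 6234 and 9210 CPM with overlapping groups, and bulk control 3 stood alone above every other library.

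**Figure D1:**
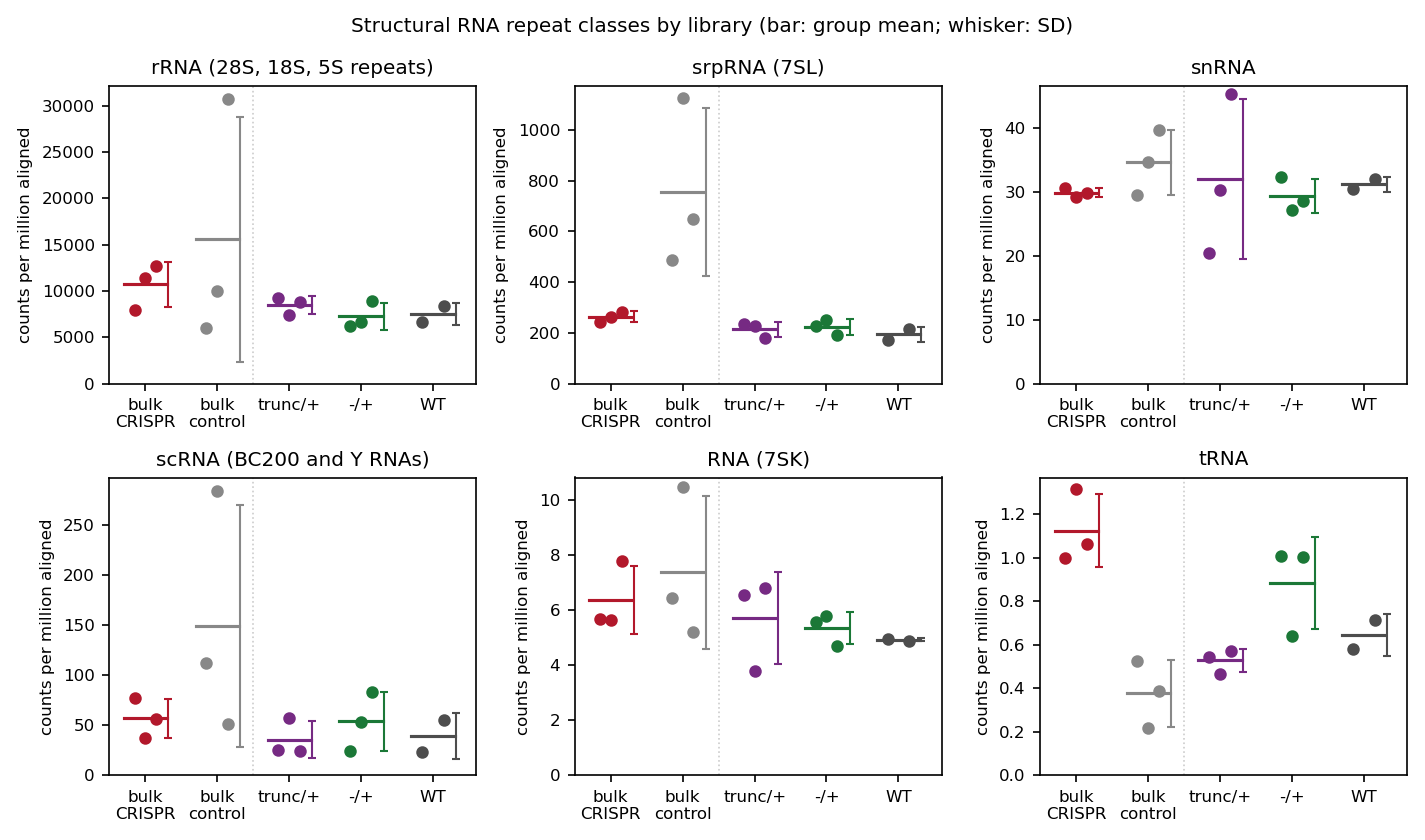
Sum of each structural RNA repeat class (estimated CPM, linear axis from 0) in the 14 libraries; points are libraries, horizontal bars group means and whiskers the SD (n = 3, or 2 in WT). In srpRNA the 3 bulk CRISPR points sit between 241 and 283 CPM, below all 3 bulk control points at 489 to 1126 CPM, while bulk control 3 alone carries the high rRNA mean.

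The difference in rRNA between bulk CRISPR and bulk control was -0.22 ± 0.73 on the log2 scale (SE; exact permutation test on the mean log2 CPM, two-sided, p = 0.90, adjusted p = 0.90 over 15 repeat classes). Without bulk control 3 it was 0.44, in the other direction. Across the clones the differences were 0.18 ± 0.18 for trunc/+ against WT, -0.06 ± 0.22 for -/+ against WT and 0.24 ± 0.18 for trunc/+ against -/+, all below the spread between clones (exact permutation p = 0.40, 0.70 and 0.30). With 3 libraries against 3, or 3 against 2, this test cannot give a p below 0.1.

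Within rRNA, fragments of the large-subunit repeat (LSU-rRNA_Hsa, 28S) held 90.6% of the counts, the small-subunit repeat (SSU-rRNA_Hsa, 18S) 9.27% and 5S the small rest. Both large RNAs come from the same precursor in equal numbers, so their ratio per kilobase (28S of 5070 bases, 18S of 1869 bases) describes how unevenly they were counted. The source of the unevenness was not tested. It was 3.96, 5.38 and 3.42 in bulk CRISPR and 3.75, 3.29 and 9.44 in bulk control. In the clones it was 1.67, 3.41 and 2.77 in trunc/+, 2.83, 2.94 and 3.71 in -/+ and 3.67 and 1.75 in WT. 28S was thus counted above 18S in every library, most of all in bulk control 3, and the ratio differed within each clone group as much as between them.

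The excess of bulk control 3 was present in the gene files too. The 5 genes of the unprocessed 45S precursor summed to 14.5, 18.7 and 20.9 FPKM in bulk CRISPR and to 14.4, 23.0 and 152 FPKM in bulk control. They summed to 9.02, 11.1 and 10.1 FPKM in trunc/+, 7.37, 7.45 and 9.03 FPKM in -/+ and 2.49 and 8.56 FPKM in WT. By edgeR, LSU-rRNA_Hsa gave a log2 fold change of -0.58 ± 0.56 (adjusted p = 0.55) and SSU-rRNA_Hsa one of -0.03 ± 0.36 (adjusted p = 0.97) in bulk CRISPR against bulk control. Without bulk control 3 the LSU value was 0.45.

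Single rRNA copies cannot be read as loci. Only 4.16% to 5.07% of rRNA counts were uniquely mapped, and the rest were shared between near-identical units on chromosome 21 and on scaffolds. The LSU copy at chr21:8442037-8446211 was at 2306, 132 and 3464 CPM in bulk CRISPR and 155, 3077 and 3051 CPM in bulk control, and it swung as widely inside trunc/+ (211, 162 and 2344 CPM) and WT (2004 and 168 CPM). The scaffold copy Un_GL000220v1:114239-118417 was low in most, though not all, of the libraries in which that copy was high, with 71.2, 2156 and 12.4 CPM in bulk CRISPR and 1241, 119 and 3456 CPM in bulk control. The class and subfamily sums do not depend on this sharing, so rRNA is described by its sums.

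7SL showed the clearest difference between the bulk pools. The srpRNA class, which is 7SL alone, was at 241, 264 and 283 CPM in bulk CRISPR and at 489, 1126 and 650 CPM in bulk control. It was at 235, 227 and 179 CPM in trunc/+, 226, 252 and 191 CPM in -/+ and 174 and 216 CPM in WT. The bulk groups did not overlap, and the bulk CRISPR pools lay near the clones while the bulk control pools stood above every other library. The class difference was -1.44 ± 0.36 on the log2 scale (exact permutation p = 0.1, the smallest possible, adjusted p = 0.25), and srpRNA was the only 1 of 15 repeat classes that was lower in bulk CRISPR without overlap (6.67%), beside 33.3% that were higher without overlap.

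In the edgeR fit over 945 subfamilies, 7SLRNA had a log2 fold change of -1.52 ± 0.33 in bulk CRISPR against bulk control, that is 2.87-fold lower, with an unadjusted p of 0.000975 and an adjusted p of 0.23. It was 1 of 17 subfamilies that were lower without overlap (1.8%, against 28.6% higher without overlap), and the only structural RNA among the 19 tested that did not overlap in either direction. DESeq2 called it, with adjusted p = 0.0016 when scaled by aligned fragments. Without bulk control 2, the library whose Z18 level was close to the edited pools and whose 7SL level was highest, the value was -1.11 (adjusted p = 0.38). Without bulk control 1, the lowest of the 3, edgeR called 7SLRNA at -1.76 (adjusted p = 0.015), 1 of 26 lower among all 960 subfamilies, beside 147 higher.

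The 3 named genes carried 92.9% to 98.3% of 7SL counts in every library, and 231 other copies shared the rest. RN7SL2 was at 148, 161 and 175 CPM in bulk CRISPR and 328, 831 and 449 CPM in bulk control. RN7SL1 was at 69.9, 79.5 and 82.1 CPM in bulk CRISPR and 126, 230 and 145 CPM in bulk control. RN7SL3 was at 10.4, 11.4 and 15.0 CPM in bulk CRISPR and 24.7, 45.8 and 35.8 CPM in bulk control. None of the 3 overlapped between the bulk groups (of all tested copies, 6.42% were lower and 17.7% higher without overlap). In the clones RN7SL2, at 109 to 144 CPM, and RN7SL3, at 2.86 to 7.06 CPM, were below every bulk CRISPR library, while RN7SL1 overlapped them.

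**Figure D2:**
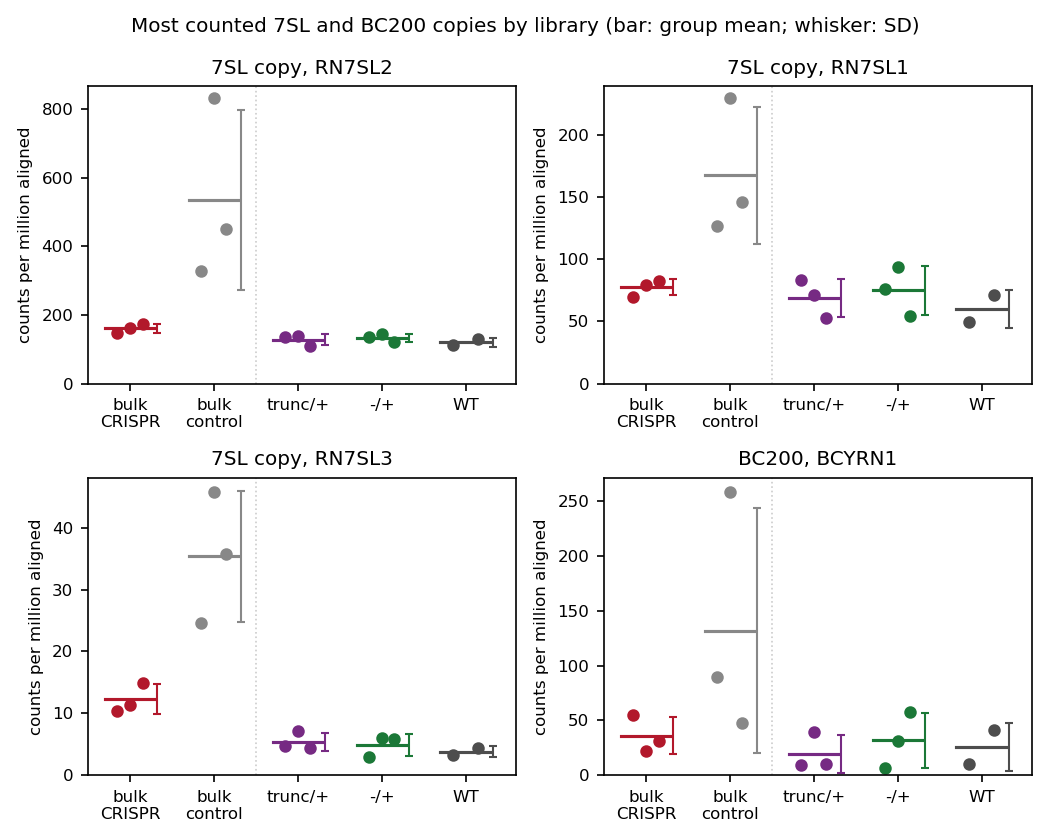
Level of the 3 most counted 7SL copies and of the BC200 copy on chromosome 2 (estimated CPM, linear axes from 0); points are libraries, bars group means and whiskers the SD. Each 7SL copy is lower in all 3 bulk CRISPR libraries than in any bulk control library, while BC200 overlaps (bulk CRISPR 22.2 to 55.1 CPM, bulk control 47.1 to 259 CPM).

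Per copy, edgeR over 14031 tested repeat copies gave log2 fold changes of -1.73 ± 0.67 for RN7SL2 (adjusted p = 0.32), -1.12 ± 0.56 for RN7SL1 (adjusted p = 0.43) and -1.53 ± 0.49 for RN7SL3 (adjusted p = 0.25). The gene files, made by another program, gave -1.44 ± 0.36, -1.02 ± 0.28 and -1.40 ± 0.25 on the log2(FPKM + 1) scale for the same 3 genes in that order, with adjusted p by limma of 0.13, 0.14 and 0.082. The remaining copies were few in counts, at 11.5 to 13.4 CPM summed in bulk CRISPR and 10.3 to 19.7 CPM in bulk control, which overlapped. The pseudogene RN7SL471P (chr6:28977475-28977773), whose mean level over the 14 libraries was under 1 CPM, had a copy-level log2 fold change of -3.20 ± 0.73 (adjusted p = 0.17).

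The mix of the 2 main 7SL genes also differed between the pools. By uniquely mapped fragments, RN7SL2 exceeded RN7SL1 by 2.25, 2.12 and 2.06 times in bulk CRISPR and by 2.78, 3.51 and 3.56 times in bulk control. The ratio was 1.57, 1.95 and 2.17 in trunc/+, 1.69, 1.62 and 2.24 in -/+ and 2.31 and 1.81 in WT. Every bulk control library lay above all 11 others, and no test was run on the ratio.

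7SL came almost wholly from copies close to the consensus. The 4 copies at most 5% diverged from it held 96.5% of the class, and 99.9% of rRNA counts lay in such copies, against 79.4% of scRNA, 52.4% of tRNA, 45.5% of snRNA and 43.1% of 7SK counts. Antisense counts over all copies of the class, used only as background, were 4.82 to 13.4 CPM for 7SL and 11.8 to 82.0 CPM for rRNA. Each was highest in bulk control 3. Alu elements derive from 7SL, and among 786 subfamilies outside the structural classes the 5 whose log2 levels over the 14 libraries were most like those of 7SL were AluYe5 (Pearson r = 0.93), AluYb8 (0.91), AluYh3 (0.90), AluSc (0.89) and AluY (0.89), with a median of -0.46 over all 786. This is a description only, since the points mix pools with clones, the 3 high bulk control libraries weigh on it, and Alu and 7SL fragments are alike in sequence. The rRNA class was most like Charlie17b (0.85), MER52D (0.85), LTR12E (0.78), MER45C (0.77) and FordPrefect (0.77), with a median of -0.34, and here bulk control 3 weighs on it alone.

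The scRNA class was mostly BC200, with 79.6% of its counts. BC200 was at 59.7, 22.5 and 42.3 CPM in bulk CRISPR and 96.6, 268 and 47.7 CPM in bulk control. It was at 9.41, 40.8 and 9.80 CPM in trunc/+, 6.93, 37.6 and 70.2 CPM in -/+ and 10.5 and 42.0 CPM in WT. BC200 varied more between clones of the same genotype than between genotypes, and each genotype held at least 1 clone near 10 CPM or below and 1 near 40 CPM or above.

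In bulk CRISPR against bulk control BC200 had a log2 fold change of -1.73 ± 0.58 by edgeR (unadjusted p = 0.013, adjusted p = 0.23), and the groups overlapped. DESeq2 scaled by aligned fragments gave an adjusted p of 0.043, and without bulk control 2 the value was -0.80. The clone comparisons gave -0.39 ± 0.88 for trunc/+ against WT, 0.54 ± 0.89 for -/+ against WT and -0.93 ± 0.80 for trunc/+ against -/+. Each error was close to or above the difference it belongs to.

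The chromosome 2 copy held on average 92.5% of BC200 counts, with 51.5% of its counts uniquely mapped, and the near-identical chromosome X copy ranged over 0 to 12.4 CPM with 0.62% uniquely mapped. The chromosome X values therefore rest on the sharing of fragments and not on fragments of its own. Epithelial markers (8 genes, most of it KRT18) summed to 542, 416 and 515 FPKM in bulk CRISPR and 718, 845 and 1110 FPKM in bulk control. They summed to 267, 367 and 225 FPKM in trunc/+, 182, 365 and 715 FPKM in -/+ and 206 and 564 FPKM in WT. In the clones the sum was high where BC200 was high, but in bulk control the highest sum, in library 3, went with the lowest BC200 level, and KRT14, at 15.5 and 0.976 FPKM in WT, ran against BC200 in those clones. No test of this was run.

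**Figure D3:**
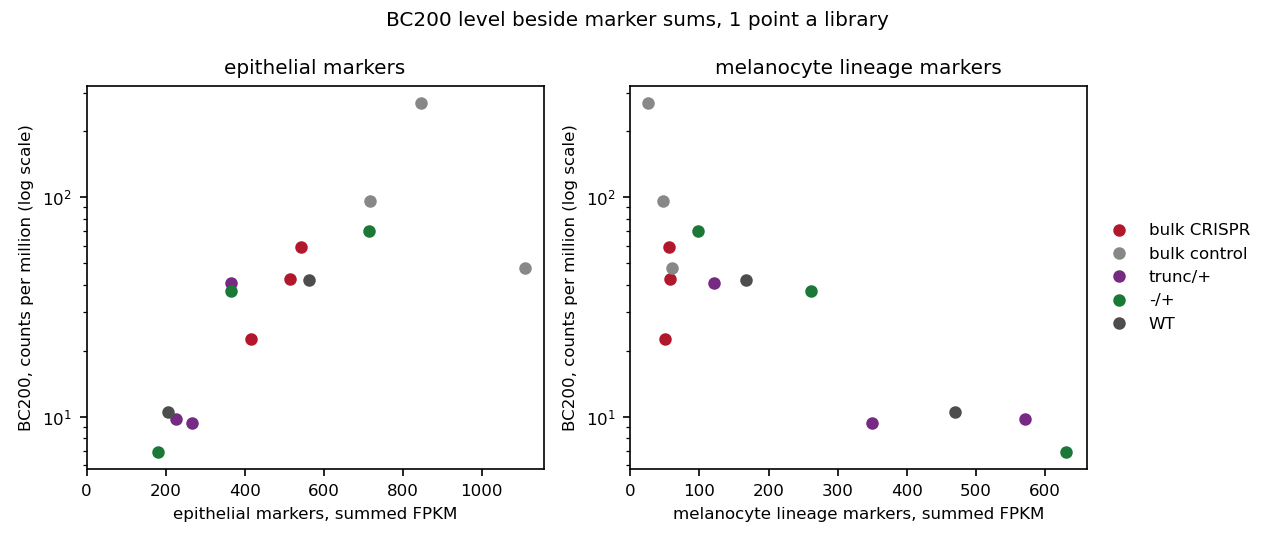
BC200 level (estimated CPM, log axis) beside the summed FPKM of 8 epithelial markers (left) and 10 melanocyte lineage markers (right), 1 point a library, coloured by group. The clones with BC200 at 6.93 to 10.5 CPM had epithelial sums of 182 to 267 FPKM, and the clones with BC200 at 37.6 to 70.2 CPM had sums of 365 to 715 FPKM, with every genotype on both sides.

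Melanocyte lineage markers summed to 56.1, 49.9 and 57.9 FPKM in bulk CRISPR and 47.8, 25.7 and 59.8 FPKM in bulk control, and to 350, 121 and 571 FPKM in trunc/+, 631, 261 and 97.6 FPKM in -/+ and 469 and 167 FPKM in WT. These sums split the clones in the opposite direction to the epithelial sums. They were 350 to 631 FPKM in the clones with BC200 at 6.93 to 10.5 CPM. In the clones with BC200 at 37.6 to 70.2 CPM they were 97.6 to 261 FPKM. In the bulk comparison the simple keratins KRT8 and KRT7 were the 2 listed markers past the threshold, with log2 differences of -1.89 ± 0.24 (limma adjusted p = 0.029) and -1.53 ± 0.24 (adjusted p = 0.048), while the defining epithelial markers CDH1, EPCAM and KRT5 were at or below 0.353 FPKM in every library. Fibroblast markers (7 genes) summed to 9.06, 8.41 and 7.59 FPKM in bulk CRISPR and 3.36, 2.61 and 2.65 FPKM in bulk control. These sums did not overlap, as was so for 21.8% of all genes in the higher direction, and the clones summed to 2.54 to 11.0 FPKM. Only 2 of the 7 were tested in the bulk fit. The extracellular matrix gene LUM had a log2 difference of 1.36 ± 0.26 (limma adjusted p = 0.088) and the surface protease gene FAP one of 1.11 ± 0.20 (adjusted p = 0.082). The other fibroblast markers overlapped between the bulk groups or were at 0. Among them PDGFRB was at 0.321, 0.370 and 0.577 FPKM in bulk CRISPR and 0.540, 0.232 and 0.642 FPKM in bulk control. The part of these marker levels in the BC200 and 7SL differences was not tested.

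The other scRNAs are the Y RNAs. HY3 was at 12.7, 11.4 and 10.8 CPM in bulk CRISPR and 12.0, 12.4 and 2.50 CPM in bulk control, and 9.49 to 14.3 CPM in the clones. It cannot be read as Y3 RNA alone, because 84.4% of its counts lay in copies inside untranslated exons of mRNAs. Most were in a Y RNA pseudogene (chr1:165662587-165662687, minus strand) within ALDH9A1, which encodes an aldehyde dehydrogenase. The share that came from host mRNA was not tested. HY3 was higher than both WT clones in all 3 trunc/+ clones (lowest 11.6 CPM) and all 3 -/+ clones, the lowest of which, at 9.92 CPM, lay just above the higher WT clone at 9.91 CPM. Of all subfamilies, 10.9% were higher without overlap in trunc/+ and 13.6% in -/+, each against WT. The difference from WT was 0.37 ± 0.19 on the log2 scale in both comparisons (edgeR unadjusted p = 0.084 and 0.085, adjusted p = 0.95 and 0.99). HY1 stayed between 0.51 and 3.06 CPM, HY4 between 0.38 and 1.55 CPM, and HY5 had 2 counts in all.

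Small nuclear and nucleolar RNAs together were at 30.6, 29.2 and 29.8 CPM in bulk CRISPR and 29.5, 34.7 and 39.6 CPM in bulk control. They were at 20.4, 30.3 and 45.3 CPM in trunc/+, 32.4, 27.2 and 28.6 CPM in -/+ and 30.4 and 32.0 CPM in WT. The trunc/+ clones covered the full range of the 14 libraries. The class difference was -0.20 ± 0.12 between the bulk groups (exact permutation p = 0.30) and within 0.09 of 0 in each clone comparison (p = 0.50 to 0.90).

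Nucleolar RNAs led the class. U14, which guides early cuts of the rRNA precursor, held 21.1% of the snRNA counts, U3, which is needed for the 18S end, 19.0%, and U17, also needed for 18S, 18.2%. U6 and U1 of the spliceosome held 15.0% and 11.9%. U17 and most U14 copies lie in introns or retained exons of host genes, U17 in SNHG3 and RCC1 and U14 mainly in HSPA8, so their counts can come from host transcripts.

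U3 was at 5.04, 4.61 and 4.77 CPM in bulk CRISPR and 4.34, 12.0 and 20.8 CPM in bulk control. The high libraries were bulk control 2 and 3 alone, and U3 in bulk control 1 was below all 3 bulk CRISPR libraries. The main copy, SNORD3A, showed the same split with 1.55, 1.11 and 0.68 CPM in bulk CRISPR and 0.96, 7.21 and 11.5 CPM in bulk control. In the clones U3 ranged over 2.93 to 5.96 CPM.

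For U3 the log2 fold change was -1.36 ± 0.47 by edgeR (unadjusted p = 0.015, adjusted p = 0.23), and SNORD3A gave -2.55 ± 0.73 (adjusted p = 0.24). Without bulk control 1 U3 was called, at -1.77 (adjusted p = 0.015). U17 leaned the other way, at 5.62, 5.45 and 6.37 CPM in bulk CRISPR and 5.47, 1.40 and 2.63 CPM in bulk control (log2 fold change 0.86 ± 0.43, adjusted p = 0.28), again with bulk control 2 and 3 apart from bulk control 1. Without bulk control 1 U17 was called as well, at 1.54 (adjusted p = 0.023). In that refit 147 of all 960 subfamilies were called higher and 26 lower, so the U17 call was 1 of 147 and the U3 call 1 of 26.

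The spliceosomal RNAs were low. U1 ranged over 2.13 to 5.72 CPM, U6 over 2.18 to 7.45 CPM, U2 over 0.32 to 1.44 CPM, U4 over 0.061 to 1.22 CPM and U5 up to 0.53 CPM, and U13 and U13_ stayed at or below 2.60 CPM. Among U6 copies RNU6-8 (chr14:32203164-32203269) was at 0.53, 0.67 and 0.66 CPM in bulk CRISPR and 0.68, 4.80 and 1.22 CPM in bulk control, a log2 fold change of -1.83 ± 0.74 (edgeR adjusted p = 0.34). U8, which is needed for 28S and 5.8S, was at 0.13 to 1.37 CPM, but 99.0% of it was SNORD118 inside an untranslated exon of the TMEM107 gene.

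7SK ranged over 5.62 to 7.77 CPM in bulk CRISPR and 5.19 to 10.5 CPM in bulk control, and over 3.76 to 6.79 CPM in the clones. The gene RN7SK itself was at 1.71, 1.76 and 3.09 CPM in bulk CRISPR and 2.25, 6.69 and 3.39 CPM in bulk control. The subfamily did not differ beyond the spread in any comparison (edgeR log2 fold changes -0.21 ± 0.32, 0.22 ± 0.27, 0.12 ± 0.27 and 0.10 ± 0.24 for bulk CRISPR against bulk control, trunc/+ against WT, -/+ against WT and trunc/+ against -/+).

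The 5S subfamily was also counted mostly at copies inside mRNAs, and the share that came from host mRNA was not tested. It was at 18.5, 12.6 and 11.7 CPM in bulk CRISPR and 9.26, 17.6 and 7.17 CPM in bulk control, with 83.7% of its counts in untranslated exons, chiefly at RNA5SP392, a 5S pseudogene in CCDC9B. It was at 8.51, 10.4 and 5.75 CPM in trunc/+, 5.35, 5.59 and 6.95 CPM in -/+ and 8.12 and 10.4 CPM in WT. All 3 -/+ clones lay below both WT clones, as did 4.92% of all subfamilies, at a log2 fold change of -0.64 ± 0.26 (edgeR unadjusted p = 0.034, adjusted p = 0.99).

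**Figure D4:**
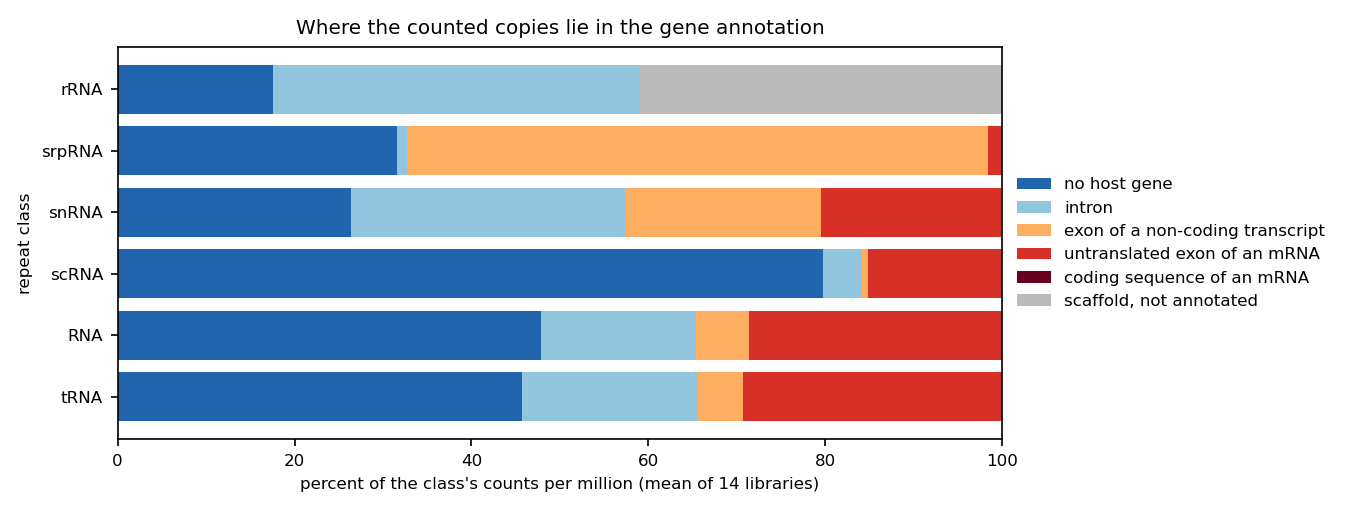
Share of each class's level (percent of the mean CPM over the 14 libraries) by where the counted copy lies in the GENCODE annotation, leaving out the copy's own gene. Untranslated exons of mRNAs hold 28.6% of the RNA (7SK) class, 29.3% of tRNA, 20.4% of snRNA and 15.1% of scRNA, but 1.43% of srpRNA and 0.083% of rRNA.

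Most copies, 625 of 1074, lay in introns and 310 in no other gene, while 52 lay in untranslated exons of mRNAs and 3 in coding sequence. The 52 copies thus weigh more in the counts of the small classes than in the number of copies. Transfer RNA showed this most plainly, since tRNA-Thr-ACG_, the most counted of 21 tRNA subfamilies, was 1 copy inside an untranslated exon of ZNF136, a zinc-finger gene, with 80 counts over the 14 libraries. tRNA-Asn-AAC followed with 62 counts and tRNA-Leu-TTG with 29, and tRNA-Ile-ATA, tRNA-Ser-AGY, tRNA-Ser-TCY, tRNA-Phe-TTY, tRNA-Leu-CTY, tRNA-Ser-TCA_ and tRNA-Arg-AGA had 4 to 24 counts each.

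Transfer RNA was the only structural class higher in bulk CRISPR without overlap, at 1.00, 1.31 and 1.06 CPM against 0.52, 0.22 and 0.38 CPM in bulk control. The difference was 1.67 ± 0.39 on the log2 scale (exact permutation p = 0.1, the smallest possible, adjusted p = 0.25), and 5 of 15 repeat classes were higher without overlap. The clones were at 0.55, 0.47 and 0.57 CPM in trunc/+, 1.01, 0.64 and 1.00 CPM in -/+ and 0.58 and 0.71 CPM in WT. The tRNA class was lower without overlap in trunc/+ than in WT (-0.29 ± 0.18, 13.3% of classes lower without overlap) and than in -/+ (-0.72 ± 0.23, 6.67% of classes), with exact permutation p of 0.20 and 0.10. Antisense tRNA counts ranged over 0.0534 to 1.05 CPM and so overlapped the sense values, and no tRNA subfamily passed the low-count filter of the edgeR fit.

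**Figure D5:**
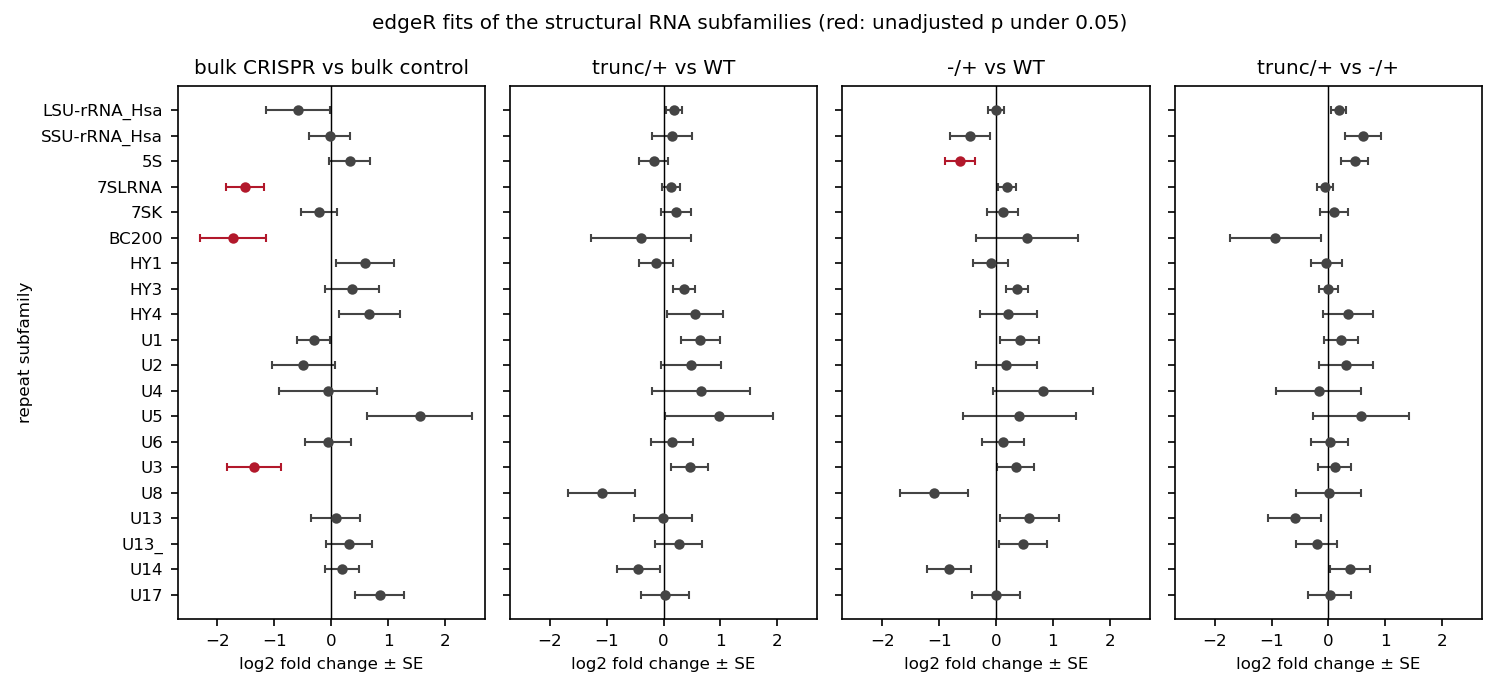
Log2 fold change with its SE from the edgeR fits of the tested structural RNA subfamilies in the 4 comparisons, red where the unadjusted p was under 0.05. In bulk CRISPR against bulk control 7SLRNA (-1.52), BC200 (-1.73) and U3 (-1.36) are red and lower; 5S in -/+ against WT (-0.64) is the only red point among the clones.

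Over all structural RNA subfamilies, edgeR called 0 of 19 tested in bulk CRISPR against bulk control, as it called 0 of all 945 (0% higher, 0% lower). At an unadjusted p under 0.05, 3 of the 19 were lower and 0 higher, beside 2.33% lower and 17.2% higher of all subfamilies. The median log2 fold change was -0.03 over the 19 and 0.36 over the 945. DESeq2 called 2 lower when scaled by aligned fragments (7SLRNA and BC200; 0.529% lower and 1.38% higher of all subfamilies) and 3 with its own size factors (U3 too; 2.43% lower and 0.423% higher of all). TMM scaling, which sets the 945 at a median of -0.02, left 4 of the 19 lower and 0 higher by unadjusted p under 0.05, beside 92 lower and 53 higher of all.

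Among copies, edgeR called 0 of 62 tested structural RNA copies (0% higher and 0.00713% lower of all 14031), and DESeq2 called 6 lower when scaled by aligned fragments (0.599% lower and 0.72% higher of all) and 8 with its own size factors (1.43% lower and 0.691% higher of all). At an unadjusted p under 0.05, 12 were lower and 0 higher, beside 4.47% lower and 7.9% higher of all copies. The 12 were 3 copies of 7SL (RN7SL1 not among them), BCYRN1, SNORD3A, RNU6-8, the 5S pseudogene RNA5SP244 in NRF1, 4 SSU copies and 1 LSU copy. The SSU and LSU copies are subject to the sharing of fragments described for rRNA.

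Among the clones no structural RNA passed the test. edgeR called 0 of 20 structural RNA subfamilies in trunc/+ against WT, in -/+ against WT and in trunc/+ against -/+, as it called 0% of all 976 in either direction in each, and DESeq2 called 0 of the 20 in each under either scaling (0% to 0.102% higher and 0% to 0.205% lower of all, depending on the comparison). At an unadjusted p under 0.05 there were 0 members in trunc/+ against WT (3.07% higher and 0.717% lower of all), 1 lower, 5S, in -/+ against WT (1.64% higher and 0.512% lower), and 0 in trunc/+ against -/+ (2.36% higher and 1.84% lower). 7SL had log2 fold changes of 0.13 ± 0.16, 0.20 ± 0.16 and -0.06 ± 0.14 in the 3 comparisons in that order (unadjusted p = 0.41, 0.25 and 0.68), each near its own error. U14 was lower than WT in all 3 -/+ clones, at 7.49, 4.96 and 4.83 CPM against 10.7 and 9.68 CPM in WT (-0.82 ± 0.39, unadjusted p = 0.059, adjusted p = 0.99), beside the 4.92% of all subfamilies that were lower without overlap.

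The 82 structural RNA copies tested among the clones were called in no comparison either. edgeR gave 0 calls in each, as for all 21634 copies (0% in either direction). At an unadjusted p under 0.05, 0 were higher and 1 lower in trunc/+ against WT (2.61% and 1.47% of all), 7 higher and 2 lower in -/+ against WT (1.83% and 0.795%), and 4 higher and 4 lower in trunc/+ against -/+ (1.91% and 1.82%). By class, 1 of 1, 6 of 9 and 6 of 8 of these were rRNA copies, whose split is not fixed by unique fragments. DESeq2 called 1 copy lower in trunc/+ against WT, an LSU copy on chromosome 21, under either scaling (0.00924% lower of all, and 0.0139% or 0.00924% higher), and 0 in the others (0% of all).

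The protein partners of these RNAs were examined in the gene files as log2(FPKM + 1) with limma, in lists of the particles' proteins, polymerases and processing factors, and with the structural RNA genes themselves. Of 242 listed genes tested, limma called 0 in bulk CRISPR against bulk control, where 0.19% of 12114 genes passed as higher and 0.157% as lower. Unadjusted p-values under 0.05 were reached by 12 as higher and 28 as lower (14% and 6.93% of all genes). The structural RNA genes made up 10 of these, 1 higher and 9 lower of 25 tested, with a median of -0.70 beside 0.18 over all genes. The 6 signal recognition particle proteins did not go with 7SL, since all 6 were positive with a median of 0.29 and none passed an unadjusted p under 0.05, SRP14, which binds the Alu-like end of 7SL, being at 0.53 ± 0.35.

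Among the other lists in the bulk pools, the spliceosomal snRNP proteins counted 2 higher and 4 lower of 42 at an unadjusted p under 0.05 (median -0.09), with SNRNP70, the U1-specific protein, at -1.03 ± 0.26 (adjusted p = 0.13). RNA polymerase I and rRNA processing genes counted 1 higher and 4 lower of 35 (median -0.17), with fibrillarin (FBL), the rRNA methyltransferase, at -0.75 ± 0.24 (adjusted p = 0.17). Factors for snRNA transcription, assembly and export counted 1 and 3 of 31 (median 0.07), RNA polymerase III and its factors 1 and 1 of 25 (0.13), tRNA processing and export 2 and 5 of 29 (0.02), with WDR4, a tRNA methylation subunit, at -1.36 ± 0.31 (adjusted p = 0.11). Cytosolic aminoacyl-tRNA synthetases counted 3 and 0 of 23 (0.16), nuclear tailing and decay factors 1 and 1 of 18 (0.47), the 7SK particle with P-TEFb 0 and 1 of 7 (0.20), and Ro and La 0 and 0 of 2 (-0.08).

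In trunc/+ against WT the partner genes leaned lower. limma called 0 of the 242 (0% higher and 0.00775% lower of 12904 genes), while 1 on the higher and 44 on the lower side had an unadjusted p under 0.05 (3.29% and 4.3% of all genes). The spliceosomal snRNP proteins were negative for 40 of 42, 15 of them at an unadjusted p under 0.05, with a median of -0.24 beside -0.02 over all genes. SNRPD2, a core Sm protein, was at 198, 259 and 160 FPKM in trunc/+ and 514 and 340 FPKM in WT (-1.05 ± 0.24, adjusted p = 0.54). RNA polymerase I and rRNA processing genes were negative for 32 of 35 (8 lower at an unadjusted p under 0.05, median -0.28), with FBL at 165, 156 and 147 FPKM in trunc/+ and 267 and 270 FPKM in WT (-0.78 ± 0.12, unadjusted p = 0.00018, adjusted p = 0.40). The groups did not overlap for either gene, as was so for 15.4% of all genes in the lower and 10.6% in the higher direction. Without trunc/+ 1 the 44 became 27 of 242 (393 of all 12809 genes lower), and without trunc/+ 2 they became 43 of 241 (638 of 12746). With every clone 555 of all 12904 genes were lower at that p. Leaving out a WT clone left a single one, so only medians are given for those refits. The median of the listed genes was -0.21 without WT 1 and -0.17 without WT 2 (-0.02 and -0.03 over all genes), beside -0.18 with every clone.

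Of the other lists in that comparison, the synthetases were negative for 22 of 23 (9 lower), snRNA transcription, assembly and export factors for 27 of 31 (4 lower, 1 higher), RNA polymerase III and its factors for 21 of 25 (2 lower), tRNA processing and export for 23 of 30 (3 lower) and tailing and decay factors for 14 of 18 (2 lower). Ro and La were negative for 2 of 2 (1 lower, SSB, the La protein), the signal recognition particle proteins for 3 of 6 and the 7SK particle for 2 of 7. The structural RNA genes went with neither, since 16 of 24 were positive with a median of 0.19 and 0 passed an unadjusted p under 0.05.

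In trunc/+ against -/+ an unadjusted p under 0.05 was reached by 2 of the 242 on the higher and 23 on the lower side (3.12% and 3.16% of all genes; 0 called by limma, 0% in either direction of all), with 41 of 42 snRNP proteins negative and a median of -0.24. The 23 became 8 of 241 without -/+ 2, 16 of 241 without -/+ 3 and 44 of 242 without -/+ 1. The count over all genes moved in the same direction, from 408 of 12904 to 210 of 12841, 330 of 12800 and 577 of 12796 in that order. In -/+ against WT 1 was higher and 2 lower (0.713% and 1.11%; 0 called, 0% higher and 0.00775% lower of all), with 28 of 42 snRNP proteins negative and a median of -0.06. The -/+ and trunc/+ differences from WT use the same 2 WT clones, and the same trunc/+ clones enter both counts of 44 and 23.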

How the data were processed

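The repeat files, made by the authors with SQuIRE on reads trimmed with cutadapt 4.6 (submitters' processing notes) and mapped to hg38, hold per copy and strand an estimated count from expectation maximization and a count of uniquely mapped fragments (SQuIRE version: not given in the sources used here). Gene files hold FPKM values that the authors made with StringTie. Whether libraries came from separate transfections is stated for the bulk pools only as triplicates, so p-values measure the spread between these libraries. Estimated counts were summed per class or subfamily, rounded and fitted over all features with edgeR 4.0.16 (quasi-likelihood, library size the aligned fragments, minimum count 10). Class sums were compared by exact permutation tests, and log2(FPKM + 1) with limma 3.58.1 for genes at 1 FPKM or more in at least 3 bulk or 2 clone libraries. P-values were adjusted by Benjamini-Hochberg, with a threshold of 0.05. DESeq2 1.42.0 was an alternative. Copies were placed with GENCODE and hg38 sequence. The named items were all classes and non-tRNA subfamilies, the 10 most counted tRNA subfamilies, the 3 most counted copies of a class, features past the threshold, those with the smallest p and Z18; other copies and genes were added after their values were seen. Members and gene lists were chosen with earlier results of these data known. The fits were tested on simulated data. No pair of the 91 library pairs held identical values. Antisense rows were used only as background, and comparison columns were not used. Some genes and sequences are not reported here.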

Additional observations from a re-analysis of the deposited data

How the results depend on the processing

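Settings that turned a class difference round did so near 0 on the log2 scale. With uniquely mapped counts snRNA was 0.066 in bulk CRISPR against bulk control, rRNA 0.023 in -/+ against WT and the SSU-rRNA_Hsa subfamily 0.077 in the bulk pools. With both strands counted tRNA was 0.011 in trunc/+ against WT and 7SK -0.065 in trunc/+ against -/+, and with TMM sizes 7SL was 0.0074 in trunc/+ against -/+. The replicate block put scRNA at 0.10 in trunc/+ against WT. Replicate numbers were not taken to pair the libraries. Same-number correlations were -0.23 to 0.21 in the bulk pools and -0.37 to 0.13 for trunc/+ with -/+. They were -0.13 to 0.21 for trunc/+ with WT, and 0.22 and 0.35 for the 2 pairs of -/+ with WT (different-number pairs -0.35 to 0.20). Each clone's values with WT 1 and WT 2 were equal and opposite (0.35 and -0.35 for -/+ 1). The pairs with WT therefore cannot show whether the numbers pair. Under the block 1 structural RNA copy and 1 gene, RN7SL3 (adjusted p = 0.022), were called lower in bulk CRISPR. Of all 14031 copies the block called 3 lower and 2 higher, and of all 12114 genes 97 lower and 123 higher.

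Counts of calls moved as follows, from 0 by edgeR or limma in each case. In the bulk pools DESeq2 called 2 subfamilies (aligned sizes) or 3 (own size factors) lower and 6 or 8 copies lower, beside the shares of all features given above. A minimum count of 3 gave 4 of 117 tested copies lower (28 lower and 17 higher of all 38831). In trunc/+ against WT both DESeq2 settings and the minimum count of 3 gave 1 copy lower. Among the clones the minimum count of 3 tested 157 structural RNA copies of 60721, and in this comparison called 8 of all lower and 33 higher. It gave 2 copies higher and 1 lower in -/+ against WT (6 higher and 2 lower of all). In trunc/+ against -/+ it gave 1 higher and 4 lower (18 higher and 11 lower of all). The cause was not tested.

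Leaving out 1 library at a time gave, in the bulk pools, rRNA differences of -0.74 to 0.44, 7SK -0.38 to 0.12, LSU-rRNA_Hsa -0.97 to 0.45 and SSU-rRNA_Hsa -0.35 to 0.20. Calls in the bulk pools ran over 0 to 1 subfamilies higher and 0 to 2 lower, 0 to 6 copies lower, and 0 to 8 genes higher and 0 to 11 lower, with the high ends all without bulk control 1, where of all features 982 of 11904 genes were called higher and 345 lower, 134 of 19234 copies lower, and 147 of 960 subfamilies higher and 26 lower. Counts of calls are not given for the comparisons with WT, where some refits left a single WT clone. In trunc/+ against WT the ranges were 7SL -0.024 to 0.29, snRNA -0.33 to 0.25 and scRNA -0.75 to 0.53. In -/+ against WT they were rRNA -0.22 to 0.095 and scRNA -0.21 to 1.07. In trunc/+ against -/+ they were 7SL -0.17 to 0.062, snRNA -0.24 to 0.34 and 7SK -0.10 to 0.32. The 7SLRNA value in the bulk pools kept its direction, at -1.76 to -1.11 in these refits and -1.96 to -1.41 under the other settings. The tRNA class rested on few counts, with 80 in its largest subfamily.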
